A study of Homo sapiens with 22 samples.

Results

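The genes described here are 28 genes of sterol and fatty acid synthesis, followed in 2 melanoma cell lines across cell states, clusters and treatments. They were taken by symbol from a list of pathway genes, and all 28 were listed in each experiment: among 33538 genes in the first experiment and among 36601 genes in the WM983B and treatment experiments. The list was chosen with earlier results of these data known. Shares of members set beside those of all genes below are therefore descriptions, not independent support. Of the members, 18 encode enzymes of the cholesterol pathway (7 of the mevalonate steps, 3 of the squalene and lanosterol steps, 8 of the steps after lanosterol), 4 encode regulators and carriers, and 6 encode enzymes that make fatty acids or supply them with reducing power.

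Single-cell RNA-seq with unique molecular identifiers (UMIs, tags that mark single RNA molecules) was available from 3 experiments. They held 12531 untreated WM989 cells in 8 wells, 1449 untreated WM983B cells in 1 library and 40021 WM989 cells in a treatment experiment. WM989 and WM983B are established human melanoma lines, and the cells of the first and the treatment experiments carried lentiviral lineage barcodes. In the first experiment a mixed sort and a sort for high EGFR and NGFR were expanded before capture, and the labels do not say which wells hold which sort. In the treatment experiment, sorted barcoded cells were expanded and split over 4 plates, which were left untreated (Control) or received the cytokine TGFB1, the TGF-beta receptor inhibitor LY2109761 (TGFBRi) or the PI3K inhibitor GDC-0941 (PI3Ki). Each treatment has 2 libraries, r1 and r2. The sample labels call the samples of a treatment Mix and Primed, and which of them is r1 was not settled, so r1 and r2 may differ in the sorted starting population. The authors assigned every cell to a drug-susceptible or a primed state, the latter being the state that survives targeted therapy more often. Accessible chromatin was profiled by ATAC-seq in 12 WM989 libraries, 3 for each of 4 sorts (Mix, EGFR/NGFR-high, EGFR-high and NGFR-high). The labels do not define Mix. The study's methods for ATAC-seq name a sort negative for both markers and no mixed sort, so Mix was taken to be the negative sort.

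Cells build cholesterol from acetyl-CoA through mevalonate, isoprenoid units, squalene and lanosterol, and they build fatty acids from the same precursor. When sterols in the endoplasmic reticulum fall, the protein INSIG1 lets go of the carrier of the SREBP transcription factors, which then move to the Golgi, are cut and switch on most genes of both pathways. SREBF2 encodes the factor that favours sterol genes and SREBF1 the one that favours fatty acid genes. PI3K signalling through AKT and mTORC1 is known to promote SREBP activity in many cell types. Both pathways consume NADPH, which the malic enzyme ME1 supplies in the cytosol.

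Each library of the treatment experiment held between 70239657 and 122420544 UMIs. Markers of melanocytic cells were present in all 8 libraries, at a summed level of 3007 to 5873 CPM (UMIs of a gene per 1000000 UMIs of the library), and were highest under PI3Ki (5557 and 5873, against 4557 and 4510 in Control) and lowest under TGFB1 (3007 and 3239). Fibroblast markers, 3 genes in all, summed to 21.8 and 21.3 CPM under PI3Ki, 44.6 and 41.0 under TGFB1 and 30.4 and 31.0 in Control. In the test described below, 3 of 6 melanocytic markers were higher and 1 lower under PI3Ki than in Control, and 4 were lower under TGFB1. Of the fibroblast markers, 1 was lower under PI3Ki and 1 higher under TGFB1. Of all genes tested, 5.83% were higher and 6.83% lower under PI3Ki, and 16.3% and 12.7% under TGFB1. The part of both marker lists in the results below was not tested. Leukocyte markers stayed at or below 0.212 CPM and epithelial markers at or below 0.025 CPM, with CD3E and KRT5 at 0 in every library. All 6 TGF-beta target genes tested rose under TGFB1. PI3Ki libraries held fewer primed cells (0.647% and 1.21%) than Control libraries (2.26% and 4.47%), and TGFB1 libraries held more (29.1% and 31.3%). PI3Ki libraries also held more cells assigned to G1 (43.6% and 44.1%, against 34.0% and 32.7% in Control), as did TGFB1 libraries (44.1% and 44.1%). The summed G2M marker level was 422 and 441 CPM under PI3Ki, against 556 and 592 in Control and 540 and 621 under TGFB1. The part of these shifts in the results below was examined by refitting with drug-susceptible or G1 cells alone. Levels per library in the treatment comparisons are CPM scaled by TMM, a library scaling based on the bulk of genes, whereas levels by state, cluster, phase or marker list and those of the other experiments are plain CPM. Folds between treatments come from edgeR's quasi-likelihood test with Benjamini-Hochberg adjustment over 18389 genes at an adjusted p of 0.05. In library sums, fewer cells of a kind and less RNA per cell cannot be told apart, and the values within states and clusters given below count those cells separately.

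PI3K inhibition raised a part of the sterol enzymes and moved fatty acid genes in both directions. Against Control, 10 of 28 members rose and 2 fell, where 12.7% of all genes tested were called (5.83% higher and 6.83% lower). The genes behind this and the other treatment shares include some far below the members in level. A leukocyte marker at or below 0.212 CPM was among them, and no member lay below 4.67 CPM in any library. The shares were not matched for level. Among the 18 cholesterol enzymes, 8 rose, none fell and 10 were not called, and their median log2 change was 0.22 against 0.00 for all genes. With library totals in place of TMM the split of the members was 4 higher and 3 lower, and the median of all genes then moved to -0.10. The plot of log2 changes by treatment shows the members in pathway order.

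**Figure D1:**
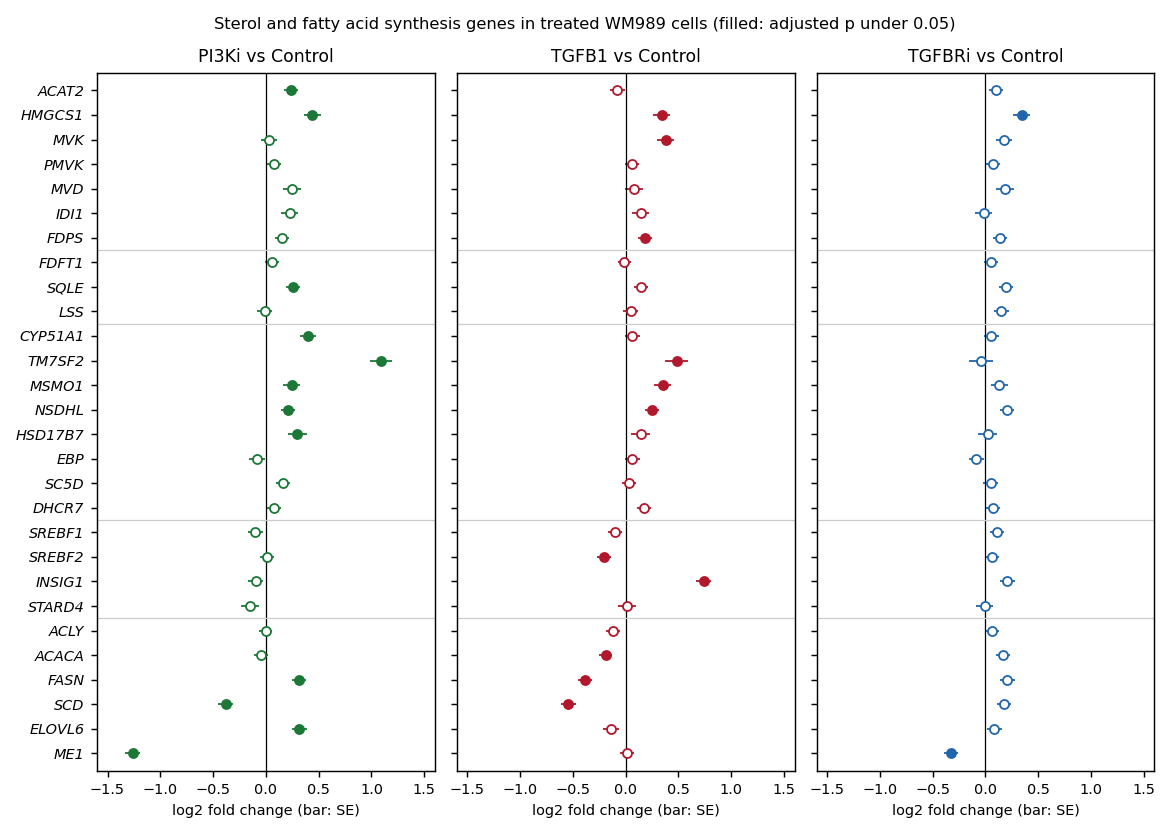
Log2 fold change of each of the 28 members (vertical axis, grouped by role) under PI3Ki, TGFB1 and TGFBRi against Control, with bars for 1 standard error and filled points for adjusted p under 0.05. TM7SF2 (1.09) and ME1 (-1.26) lie farthest from 0 under PI3Ki, and INSIG1 (0.74) under TGFB1.

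The largest increase was that of TM7SF2, which encodes a sterol reductase that acts soon after lanosterol. Its gene lies on chromosome 11 at 65111845 to 65116384 (hg38, plus strand). TM7SF2 stood at 4.91 and 4.79 CPM in the Control libraries and at 9.33 and 11.1 CPM in the PI3Ki libraries. Both PI3Ki libraries lay above all 6 other libraries, of which the TGFB1 libraries were the nearest at 7.53 and 6.08 CPM. The change was 2.13-fold (log2 1.09, SE 0.10, adjusted p = 2.8e-07 by edgeR's quasi-likelihood test).

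CYP51A1, the demethylase that acts on lanosterol itself, measured 184 and 189 CPM in Control and 237 and 254 CPM under PI3Ki. No other library exceeded 205 CPM, so the PI3Ki libraries were again the highest 2 of 8. The rise was 1.32-fold (log2 0.40, SE 0.07, adjusted p = 0.00074 in edgeR). The other enzymes after lanosterol that passed the test were HSD17B7, MSMO1 and NSDHL, with log2 changes of 0.30, 0.25 and 0.21 and adjusted p-values in edgeR of 0.030, 0.049 and 0.045. SC5D (0.16), DHCR7 (0.08) and EBP (-0.08) were not called.

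Of the mevalonate enzymes, HMGCS1 and ACAT2 rose. HMGCS1 condenses acetyl units to the precursor of mevalonate and measured 30.4 and 29.1 CPM in Control against 38.5 and 41.9 CPM under PI3Ki. The groups did not overlap, although the TGFBRi libraries reached 41.5 and 34.0 CPM. The log2 change was 0.44 (SE 0.08, adjusted p = 0.00079 in edgeR). ACAT2, which makes acetoacetyl-CoA, went from 88.3 and 92.4 to 99.1 and 114 CPM, a log2 change of 0.24. The decarboxylase MVD and the isomerase IDI1 lay just outside the threshold, with log2 changes of 0.25 and 0.22 and adjusted p-values in edgeR of 0.056 and 0.061. MVK, PMVK and FDPS were not called.

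SQLE, the epoxidase that begins the oxygen-dependent part of the pathway, measured 122 and 116 CPM in Control and 139 and 145 CPM under PI3Ki. The 2 groups stood apart, with a log2 change of 0.26 (SE 0.07, adjusted p = 0.013 in edgeR). FDFT1 and LSS, which act just before and after it, had log2 changes of 0.06 and -0.01 and were not called.

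None of the 4 regulators and carriers passed the test under PI3Ki in edgeR, and none had an unadjusted p under 0.05 or was called by DESeq2. STARD4, which encodes a sterol transfer protein, was called as lower in 3 of 9 other settings, among them library totals (log2 -0.26) and G1 cells alone (-0.35). INSIG1 measured 43.9 and 44.1 CPM in Control and 40.3 and 42.2 CPM under PI3Ki. The log2 change of INSIG1 was -0.09, that of SREBF2 was 0.01, that of SREBF1 was -0.10 and that of STARD4 was -0.15.

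The fatty acid genes split. ME1 lies on chromosome 6 at 83210402 to 83431051 (hg38, minus strand) and measured 36.9 and 41.1 CPM in Control and 14.9 and 17.6 CPM under PI3Ki. These 2 PI3Ki libraries were the lowest of all 8, and the next lowest was a TGFBRi library at 29.3 CPM. ME1 was 2.40-fold lower than in Control (log2 -1.26, SE 0.07, adjusted p = 3.1e-11 in edgeR). SCD, the desaturase that introduces the first double bond, measured 337 and 322 CPM in Control and 257 and 249 CPM under PI3Ki, and fell by 0.38 on the log2 scale (SE 0.07, adjusted p = 0.00074 in edgeR). FASN, the fatty acid synthase, went the other way. It measured 168 and 149 CPM in Control and 204 and 191 CPM under PI3Ki (log2 0.32, SE 0.07, adjusted p = 0.0030 in edgeR). ELOVL6, which elongates the products of FASN, rose by a log2 change of 0.32. ACLY and ACACA, which supply and carboxylate acetyl-CoA, were at log2 changes of 0.00 and -0.05 and were not called.

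**Figure D2:**
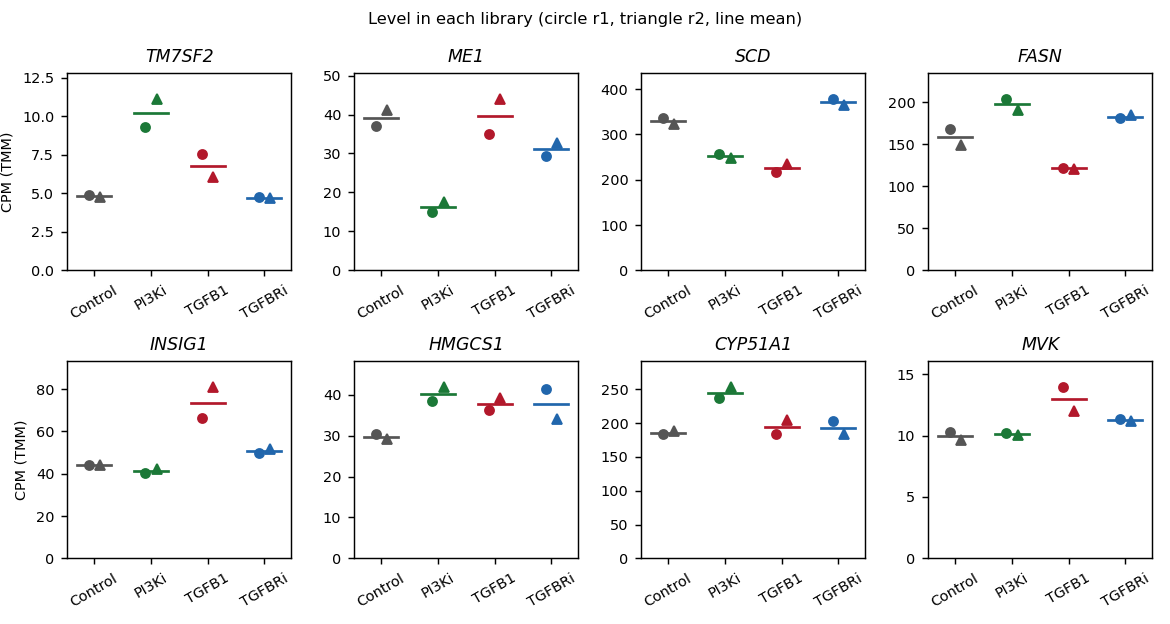
CPM (vertical axis, TMM-scaled) of 8 members in each of the 8 libraries of the treatment experiment, with r1 and r2 as separate points and a line at the mean of each treatment. PI3Ki libraries are highest for TM7SF2 and CYP51A1 and lowest for ME1, while TGFB1 libraries are highest for INSIG1 and lowest for SCD and FASN.

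TM7SF2, SCD and ME1 passed the test under PI3Ki in all 9 alternative settings and with any single library left out. HMGCS1 and CYP51A1 passed in all 9 settings and in 7 of 8 fits without 1 library. Without PI3Ki r2 only 3 members were called, without PI3Ki r1 or Control r2 there were 6, and without Control r1 there were 7. Fits without a TGFB1 or TGFBRi library leave both groups of this comparison whole. FASN passed in all 9 settings but lost its call without Control r2, PI3Ki r1 or PI3Ki r2. SQLE passed in 7 settings and lost its call whichever PI3Ki or Control library was left out. ACAT2 and ELOVL6 passed in 5 settings. ACAT2 lost its call without Control r1, Control r2 or PI3Ki r2, and ELOVL6 without Control r1, PI3Ki r1 or PI3Ki r2. MSMO1 and HSD17B7 passed in 3 settings and NSDHL in 1, and all lost their calls whichever PI3Ki or Control library was left out. Without the replicate term 6 members were called, 4 higher and 2 lower, while calls over all genes fell from 2328 to 649. Calls over all genes also fell when a PI3Ki or Control library was left out, so the loss was not particular to the members. In drug-susceptible cells alone 11 members were called (background 12.1%), and in G1 cells alone 8, 5 higher and 3 lower (background 12.6%). ACAT2, MSMO1, NSDHL, HSD17B7 and ELOVL6 lost their calls in G1 cells.

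The direction was also read inside the authors' clusters. In the 7 clusters with at least 50 cells in all 4 PI3Ki and Control libraries, TM7SF2, CYP51A1, ELOVL6 and FASN were higher under PI3Ki in both replicates in 7 of 7. ME1 was lower in 7 of 7, with mean log2 ratios from -1.48 to -0.94, and SCD was lower in 7 of 7, from -0.55 to -0.20. HMGCS1, ACAT2, MSMO1 and SQLE were higher in both replicates in 6 of 7 clusters, and HSD17B7 and NSDHL in 4 of 7. Their sizes differed between clusters. Mean log2 ratios ran from -0.062 to 0.70 for HMGCS1 and from -0.12 to 0.59 for ACAT2. For MSMO1 they ran from -0.064 to 0.46 and for SQLE from -0.044 to 0.52. The lowest of each of these 4 genes was in cluster 2. In cluster 0 (9017 cells in all) HMGCS1 was at 0.057, ACAT2 at 0.19, MSMO1 at 0.0076 and SQLE at 0.092. ACAT2, MSMO1 and HSD17B7 were lower in both in 1 cluster. These ratios are of plain CPM, without the TMM factors, which were 0.957 and 0.941 for PI3Ki and 1.002 and 1.034 for Control. They have no test, since the clusters come from the same counts. Of the members not called, FDPS was higher in both replicates in 6 of 7 clusters, IDI1 and SC5D in 5, and MVD and DHCR7 in 4. ACACA, EBP, FDFT1 and SREBF2 were lower in both in 4 of 7. The clusters divide the same 4 libraries, so they add no replicates, and the share of all genes was not computed.

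Genes outside the 28 gave the surroundings of these changes. Among other sterol genes, NPC2, which carries sterol out of lysosomes, rose under PI3Ki by a log2 change of 0.32, and ERG28 rose by 0.27. Among 5 genes of SREBP processing only INSIG2 passed (-0.49). Of 8 genes of sterol efflux and LXR only APOE rose (0.75). Of 14 genes of fatty acid desaturation, elongation and activation only ACSL1 was called and fell by 0.49 on the log2 scale, and of 11 tested genes of fatty acid oxidation CPT1A fell by 0.55 and ACADVL by 0.23. Of 6 other genes that supply NADPH, TALDO1 rose (0.22) and none fell. Of 8 genes that FOXO factors switch on, 3 rose and none fell under PI3Ki, among them TXNIP (0.88), where 5.83% of all genes rose. Under TGFB1 4 of these 8 rose (background 16.3%), and set against TGFB1 directly, PI3Ki left 1 higher and 3 lower (background 15.3% and 18.7%).

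TGFB1 raised INSIG1 and several sterol enzymes and lowered SCD and FASN. It raised 7 members and lowered 4, where 29.0% of all genes were called (16.3% higher and 12.7% lower). Of the 18 cholesterol enzymes, 6 rose and none fell. Without either TGFB1 library 5 members were called. In G1 cells alone TGFB1 changed 13 members, 9 higher and 4 lower, of which 8 were also called in all cells. FDPS, SREBF2 and ACACA were among those that lost their calls there. Over all genes 5021 were called in G1 cells, against 5324 in all cells. The TGFB1 comparison shares its Control libraries with that of PI3Ki.

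INSIG1 had the largest change. It lies on chromosome 7 at 155297776 to 155310235 (hg38, plus strand) and measured 66.2 and 81.0 CPM under TGFB1. All 6 other libraries lay between 40.3 and 51.5 CPM. The rise was 1.67-fold (log2 0.74, SE 0.07, adjusted p = 2.5e-08 in edgeR). MVK, the mevalonate kinase, measured 14 and 12 CPM under TGFB1 against 10.3 and 9.65 CPM in Control (log2 0.38, SE 0.08, adjusted p = 0.00066 in edgeR). The other increases were TM7SF2 (log2 0.49), MSMO1 (0.35), HMGCS1 (0.34), NSDHL (0.25) and FDPS (0.19), the synthase of farnesyl units. FDPS was called in 3 of 9 other settings, and it lost its call whichever TGFB1 or Control library was left out.

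Among the fatty acid genes, SCD measured 216 and 235 CPM under TGFB1 and fell by 0.54 on the log2 scale (SE 0.07, adjusted p = 2.3e-06 in edgeR). FASN measured 121 and 121 CPM, below the lowest Control library at 149 CPM, and fell by 0.39. SREBF2 fell by 0.20, a call made in 6 of 9 other settings. It was lost without the replicate term, in G1 cells and in some fits without 1 library. ACACA fell by 0.19, a call made in 2 of 9 other settings and lost whichever TGFB1 or Control library was left out. ME1 measured 35.1 and 44.0 CPM, overlapping Control, and had a log2 change of 0.02.

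In drug-susceptible cells alone TGFB1 changed 6 members, 2 higher and 4 lower, where 14.9% of all genes were called, against 29.0% in all cells. There INSIG1 had a log2 change of -0.038 and MVK of -0.014, and neither was called. HMGCS1 (0.14), MSMO1 (0.13), NSDHL (0.18), FDPS (0.11) and ACACA (-0.099) also lost their calls there, while TM7SF2 (0.47), SCD (-0.45), FASN (-0.28) and SREBF2 (-0.22) kept theirs. DHCR7, a sterol reductase, was called there (0.20, adjusted p = 0.049 in edgeR) but not in all cells. ME1 fell by 0.23 in these cells (adjusted p = 0.018 in edgeR). By state, INSIG1 in drug-susceptible cells measured 39.3 and 45.8 CPM under TGFB1 and 42.7 and 43.7 CPM in Control. In primed cells INSIG1 measured 147 and 195 CPM under TGFB1 and 118 and 104 CPM in Control.

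Whether the change against Control differed between cells assigned to the 2 states at harvest was tested over 18502 genes. The test was an interaction term on sums per library and state. For TGFB1, 12 of 28 members differed (background 9.98%), 11 with a more positive change in primed cells, among them MVK (log2 difference 1.05, SE 0.22), INSIG1 (0.83, SE 0.11), EBP (0.75, SE 0.14) and HMGCS1 (0.73, SE 0.15). ME1 was the exception, with a more negative change in primed cells (-0.58, SE 0.11, adjusted p = 3.6e-06 in edgeR). With library totals the median of all genes moved from 0.04 to -0.13, and 8 members were called, 7 of them more positive. Without Control r2 there were 4, and without TGFB1 r1 there were 7. For TGFBRi, ME1 alone differed (0.54, SE 0.12, background 0.551%). It lost its call without Control r1, TGFB1 r1, TGFB1 r2 or TGFBRi r1. For PI3Ki no member was called in edgeR (background 1.21%), 3 had an unadjusted p under 0.05, and 2 were called with library totals. The primed side of that comparison rests on 25 and 70 PI3Ki cells. The states are clusters of the same counts, and the primed cells compared are of different clusters. Under TGFB1 most lay in cluster 4 (1548 and 1706 of 1577 and 1757 primed cells), and in Control most lay in cluster 10 (89 and 159 of 94 and 165). Treatment and cluster cannot be told apart in this test.

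TGFBRi changed few members. HMGCS1 rose (log2 0.34, SE 0.08, adjusted p = 0.022 in edgeR) and ME1 fell by 0.33 (SE 0.07, adjusted p = 0.0058 in edgeR), where 2.54% of all genes were called. Without Control r1 neither was called (8 members had an unadjusted p under 0.05 in edgeR), and without Control r2 only ME1 was.

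Set against TGFBRi directly, PI3Ki changed 10 members, 5 in each direction (background 17.0%, 8.25% higher and 8.77% lower). TM7SF2 (log2 1.13), CYP51A1 (0.34), HSD17B7, IDI1 and ELOVL6 were higher, and ME1 (-0.93), SCD (-0.56), INSIG1 (-0.30), ACACA and SREBF1 were lower. Without PI3Ki r2 only 3 were called, and without PI3Ki r1 or TGFBRi r2 there were 6. With library totals the split was 2 higher and 7 lower. Set against TGFB1, PI3Ki changed 9 members, 6 higher and 3 lower (background 33.9%, 15.3% higher and 18.7% lower), and with library totals 5 were higher and 7 lower. In the main fit the members were thus called about as often as all genes. TM7SF2 (0.60), FASN (0.70), ELOVL6 (0.46), CYP51A1 (0.34), ACAT2 (0.32) and SREBF2 (0.21) were higher, and ME1 (-1.28), INSIG1 (-0.83) and MVK (-0.35) were lower. Between the replicates, r2 against r1, STARD4 (0.23) and ME1 (0.22) were higher in r2 and none was lower (background 6.87%, 4.28% higher and 2.59% lower). That, too, was about the share of all genes. Without either TGFBRi library 6 members differed, without either TGFB1 library 0 did (4 without r1 and 5 without r2 at an unadjusted p under 0.05 in edgeR), and without a Control or PI3Ki library 1 did.

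In the first WM989 experiment, primed cells carried far more ME1 and INSIG1 than drug-susceptible cells and less FASN. Summed over cells, 8 of 28 members differed by at least 1.5-fold between the states, 6 higher and 2 lower, where 33.5% of genes at or above 5 CPM did (19.3% higher and 14.3% lower). The states come from clusters of these counts, so these values are a description without a test. Between 6.85% and 79.7% of a well's cells were primed, so the sums of the 2 states draw on the wells in different proportions. By the mean of the log2 ratios within wells, 7 members passed 1.5-fold, 6 higher and 1 lower. That mean gave 2.03-fold for SQLE, against 1.57 from the sums, and 1.43-fold for HMGCS1, against 1.08. Per the study's methods, the cells of a culture were divided over 2 wells when the chip was loaded, so the 8 wells are not 8 separate cultures, and which wells share one is not stated.

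ME1 stood at 325 CPM in the primed state against 24.9 CPM in the drug-susceptible state, 13-fold higher. By well, it ranged from 143 to 448 CPM in primed cells and from 19.8 to 34.9 CPM in drug-susceptible cells, so the ranges did not overlap. Wells 1, 2, 5 and 6, where 56.9% to 79.7% of cells were primed, held 448, 347, 338 and 354 CPM of ME1 in primed cells. In wells 3, 4, 7 and 8, with 6.85% to 9.42% primed cells, it was 156, 165, 143 and 161 CPM. Which sort these wells held was not settled from the labels. The mean of the 8 log2 ratios gave a lower fold of 8.78.

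INSIG1 stood at 191 CPM in the primed state against 54.8 CPM in the other, 3.48-fold higher. By well, primed cells held 177 to 255 CPM and drug-susceptible cells 40.4 to 60.5 CPM, again without overlap. The other higher members were MSMO1 (58.3 against 28.8 CPM), STARD4 (17.5 against 8.85), SQLE (220 against 140) and LSS (38.6 against 25.2). All 6 were higher in 8 of 8 wells, as were HMGCS1 and TM7SF2 (29.6% of genes were). Members were thus higher in every well no more often than all genes. In the r2 wells TM7SF2 held only 1.94 to 4.16 CPM in either state, under the 5 CPM used for the sums. FASN stood at 131 CPM in the primed state against 220 CPM and was lower in 8 of 8 wells, as were ACLY and ACACA (33.2% of genes were). FDFT1 was lower in 7 of 8 wells, at 127 against 197 CPM, although its mean over wells was within 1.5-fold.

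The 4 wells of each replicate gave different ratios for some members. In 9 members, HMGCS1, IDI1, FDPS, FDFT1, NSDHL, HSD17B7, SREBF2, STARD4 and FASN, every r1 well lay above every r2 well (5.12% of genes did). For PMVK and INSIG1 every r1 well lay below (9.49% of genes did). Since cultures were divided over wells, these separations of 4 against 4 wells rest on fewer cultures.

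**Figure D3:**
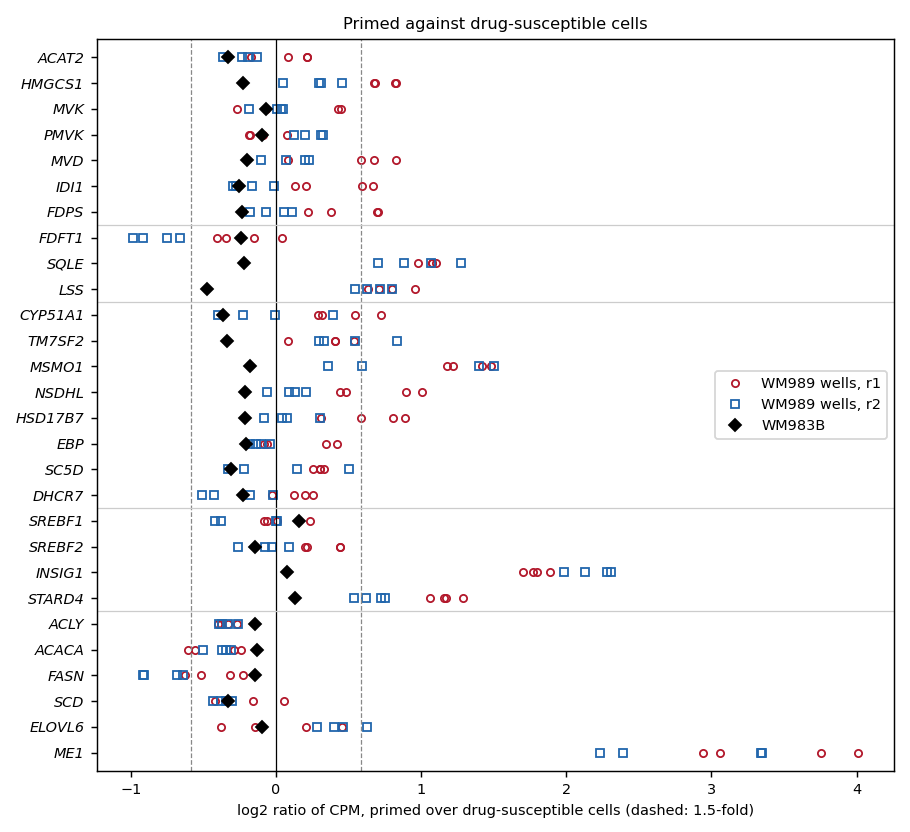
Log2 ratio of CPM in primed over drug-susceptible cells (horizontal axis) for each member, with a point for each of the 8 WM989 wells by replicate and 1 for WM983B where the member reached 5 CPM; dashed lines mark 1.5-fold. ME1 and INSIG1 lie to the right of the 1.5-fold line in all 8 wells, and no WM983B point lies outside it.

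In WM983B, where 50.4% of cells were assigned to the primed state, none of the members differed by 1.5-fold between the states (7.76% of genes did, 5.24% higher and 2.52% lower), and the single library gives no replicate check. In G1 cells alone 3 members were lower in the primed state by that measure, ACAT2, LSS and CYP51A1 (3.93% of genes were). INSIG1 was at 132 CPM in the primed and at 125 CPM in the drug-susceptible state. In the same order SQLE measured 142 and 166 CPM, and MSMO1 62.5 and 70.8 CPM. ME1 was almost absent from the counts: 0 UMIs in primed and 2 in drug-susceptible cells of 102738398 UMIs in all, with exact Poisson upper limits of 0.076 and 0.134 CPM.

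CYP51A1 stood at 8.36 CPM in the first and at 206 CPM in the treatment experiment on the same line. The gene lists of these experiments hold 33538 and 36601 genes. CYP51A1 overlaps LRRD1 and CYP51A1-AS1, which stood at 0.123 to 0.243 CPM in all 3 experiments. Its levels were therefore not compared across experiments.

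The summed level of the members differed between clusters. In the treatment experiment the summed level of the 28 members was highest in cluster 5 (2324 CPM), of whose cells 94.98% were in G2M, and lowest in clusters 11 and 6 (1387 and 1467 CPM). Cluster 7, with 100% of cells in G2M, stood at 2122 CPM, below cluster 9 with 2.93% (2197 CPM). In the first experiment it was highest in cluster 6 (2331 CPM, 99.7% G2M) and lowest in cluster 10 (1387 CPM), but without SCD primed cluster 9 was highest (2069 against 1968 CPM in cluster 6). In WM983B the cluster with 87.8% of cells in G2M stood at 2091 CPM and the highest, with 34.2%, at 2525 CPM. SQLE in drug-susceptible cells of the treatment experiment measured 108 CPM in G1, 119 in S and 162 in G2M, and HMGCS1 28.7, 31.7 and 46.9 CPM. TM7SF2 had its lowest level in G2M, at 6.99 CPM in G1, 8.51 in S and 4.44 in G2M. Cluster 6 of the treatment experiment held 1104 and 1135 PI3Ki cells but 129 and 39 Control cells, and ME1 in it measured 10.7 and 12.4 CPM under PI3Ki and 17.5 and 26 CPM in Control. Most cells of cluster 11 came from PI3Ki r2 (271 of 355), and leaving that cluster out gave 13 called members for PI3Ki against Control.

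**Figure D4:**
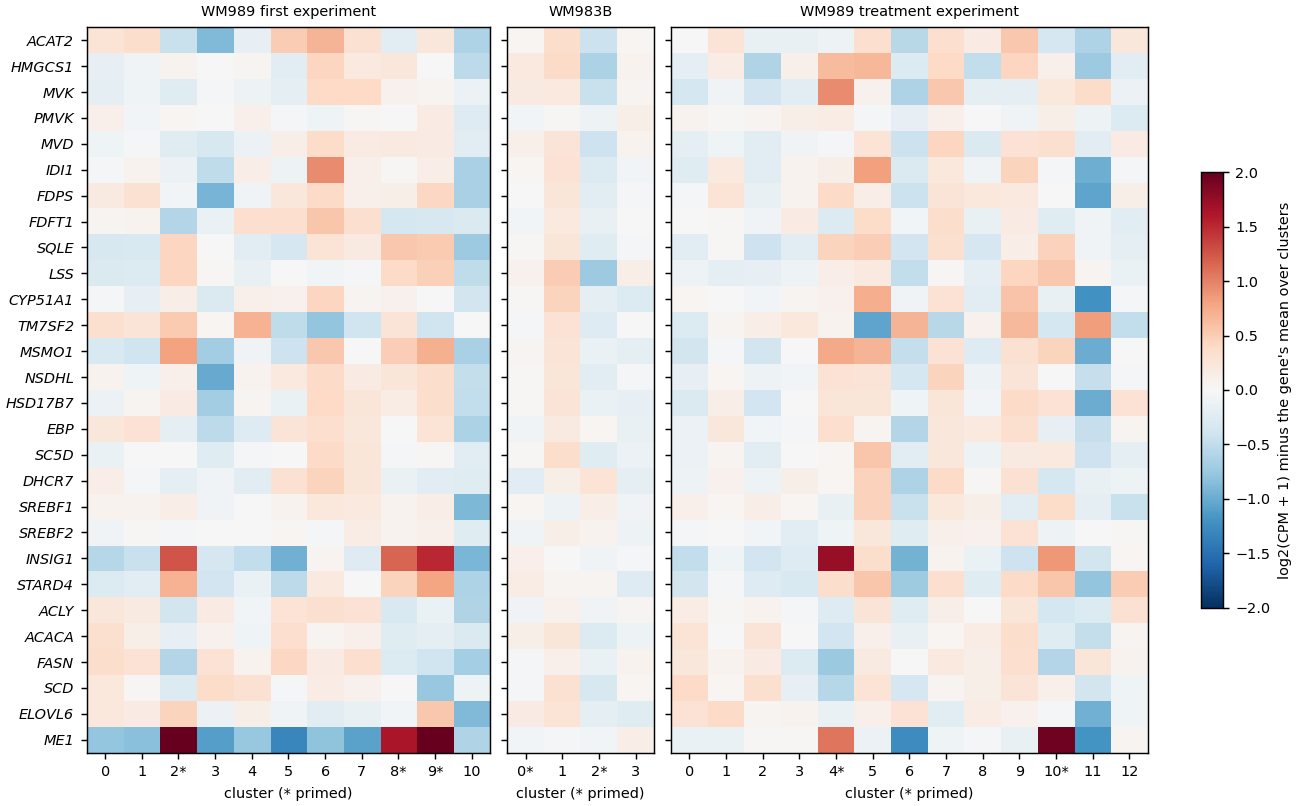
Level of each member in each cluster of the 3 experiments, as log2(CPM + 1) minus its mean over the clusters of that experiment (colour, with values beyond 2 in the end colour), with an asterisk at primed clusters. ME1 and INSIG1 stand out in primed clusters 2, 8 and 9 of the first experiment and 4 and 10 of the treatment experiment.

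Promoters of these genes carried peaks in all sorts. A RefSeq promoter (hg38, 250 bases before to 50 after the start) was matched for 24 members, some with several starts, and all 24 had at least 1 promoter with a peak in all 12 libraries, against 47.2% of genes. Of the 3 promoters of ACACA, 1 had a peak in only 1 library, a Mix library. ACAT2, FDFT1, SQLE and FASN were not matched. Peak height is the fold enrichment over local background that the peak caller gave. In EGFR/NGFR-high against Mix libraries the groups did not overlap for MSMO1 alone, at 135, 110 and 112 against 89.2, 109 and 94.9. The lowest EGFR/NGFR-high value of MSMO1, 109.6, was close to its highest Mix value, 109.3. The MSMO1 ratio was 1.22 (exact permutation test, two-sided, p = 0.1, the smallest that 3 against 3 allows). Of all promoters with a peak in all 12 libraries, 12.1% lay above and 2.45% below without overlap. ME1, whose RNA differed most between states, had means of 15.6 ± 1.52 in EGFR-high, 16.3 ± 4.54 in NGFR-high, 15.6 ± 1.93 in EGFR/NGFR-high and 16.5 ± 0.061 in Mix libraries (SD, n = 3), which overlap. The ATAC sorts carry no treatment, so they do not bear on PI3Ki.

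**Figure D5:**
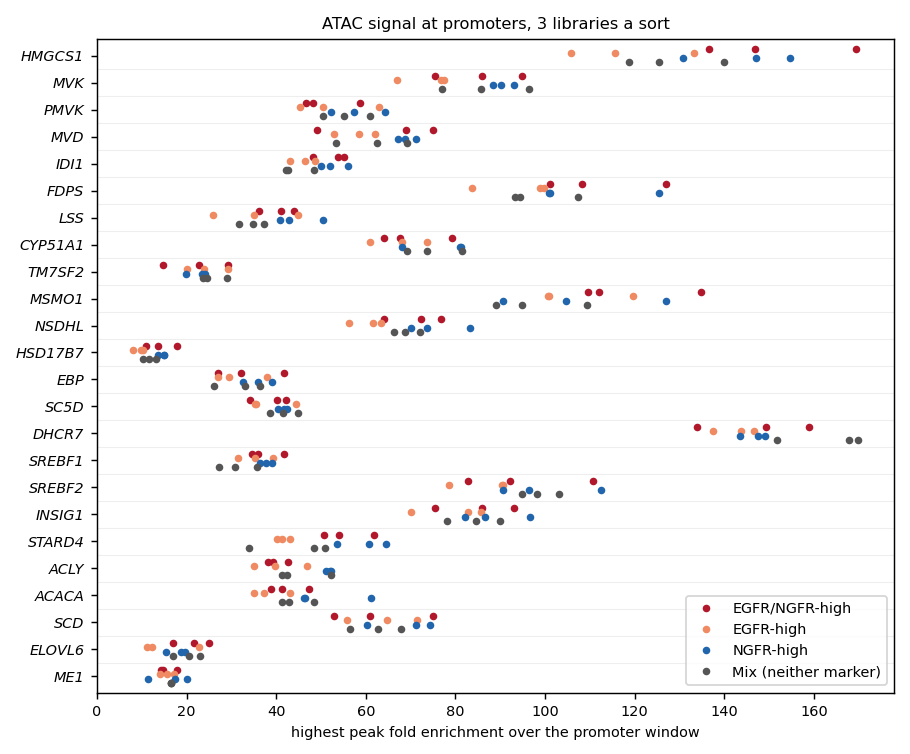
Fold enrichment of the highest promoter peak (horizontal axis, linear) of each matched member in the 12 ATAC-seq libraries, by sort. MSMO1 is the only member whose EGFR/NGFR-high points all lie above its Mix points.

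The promoter letters were searched on both strands for motifs of factors that act on these genes. TCACNCCA, a short form of the sterol response element bound by SREBP, was found in 4 of 24 members and in 4.81% of 27195 genes. A gene was counted where any of its promoters held the letters. The longer TCACNCCAC was found in SREBF2 only, against 1.39%. The short forms are shown within 30 bases, the motif in capitals, because MSMO1 and MVK changed in the treatment experiment, ME1 in state and treatment, and SREBF2 encodes the factor itself.
ME1 (chr6:83431016-83431045, minus strand, after the start): agtcagcaccgTCACCCCAgcagcatccgc
MSMO1 (chr4:165327502-165327531, plus strand): tctcactatccTCACTCCAtccgcggagcc
MVK (chr12:109573588-109573617, plus strand): gttcgcagttcTCACCCCAgggcgggacac
SREBF2 (chr22:41832961-41832990, plus strand): atgacgcgccaTCACCCCAcgcaccgcttc

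CCAAT, the box bound by NF-Y, was found in 19 of 24 members (79.2%) and in 39.7% of genes, and GGGCGG, the GC box, in 23 of 24 and in 48.4%. CACGTG was found in 3 of 24 and in 8.79%. The CCAAT boxes of the genes that rose most under PI3Ki and TGFB1 are shown with the box in capitals.
TM7SF2 (chr11:65111786-65111815, minus strand): cccagcacaccagCCAATcggcgctcgggg
INSIG1 (chr7:155297696-155297725, minus strand): gaggcggccgcaaCCAATgggaggccggcg
A match is a string of letters in this window and was not tested as a site.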

How the data were processed

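Members and gene lists were chosen with earlier results of these data known. RNA values are UMI counts for each gene in each cell, which the authors obtained with Cell Ranger (hg38) and deposited after filtering in Seurat. The deposited metadata add each cell's library, cluster, state, phase and percent of mitochondrial reads (not used as a filter here). No doublets were removed here; pairs of libraries shared at most 13 barcodes. Clusters, states and phases are the authors'. For ATAC-seq the authors deposited MACS2 2.1.1.20160309 peaks per library, made with Bowtie2 2.3.4.1 and SAMtools 1.1, whose fold enrichment ratio was used, with the deposited -log10 q-value to rank peaks.

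Counts were summed per library and tested in edgeR 4.0.16 (R 4.3.3) with filterByExpr, TMM and a model of treatment and replicate with 3 residual degrees of freedom. Per the study's methods, the 2 replicates of the treatment experiment were run side by side from the sort onward, each expanded and then split over the treatments. Same-numbered libraries deviated together in all pairs (r from 0.256 to 0.365 over genes), so replicate is a term of the main model. In simulated PI3Ki data 64.3% of 1.5-fold and 84.4% of 2-fold changes were recovered, with 5 false calls among 18010 genes. The interaction of treatment and state was chosen after seeing the data. It was first run, left out once its results were known because the states are clusters of the same counts, and then put back with that limit stated. In its simulation 48.4% of 2-fold differences were recovered. Library depth was 70239657 to 122420544 UMIs in the treatment experiment. CPM in the first and WM983B experiments were not tested, and exact Poisson intervals at 95% cover counting error only.

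Alternatives were DESeq2 1.42.0, no low-count filter, library totals, no replicate term, subsets of cells, equal cell numbers and leaving out each library. Motif searches used RefSeq promoters, gene positions GENCODE annotation. All 28 members are reported, and other genes were named where their list was called. Some genes of the list of other sterol genes are not reported here, nor is that list's count.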

Additional observations from a re-analysis of the deposited data

Results flagged for a closer look

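In 5 members the WM983B log2 ratio of primed to drug-susceptible cells had the opposite sign to all 8 WM989 wells: HMGCS1 (-0.23), SQLE (-0.22), LSS (-0.47), TM7SF2 (-0.34) and MSMO1 (-0.18). Small negative ratios were common there: of the members at or above 5 CPM in WM983B, only SREBF1, INSIG1 and STARD4 had a positive ratio. The share of all genes with such opposite signs was not computed. The difference between the lines was not tested, since WM983B has 1 library.

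The interaction test compared changes under TGFB1 between the states assigned at harvest, as log2 change in primed minus drug-susceptible cells. It called MVK (1.05), INSIG1 (0.83), EBP (0.75), NSDHL (0.74), HMGCS1 (0.73), ACAT2 (0.69), DHCR7 (0.64), FDPS (0.54), ACLY (0.50), FASN (0.42), CYP51A1 (0.36) and ME1 (-0.58). For TGFBRi it found ME1 (0.54). The primed cells of TGFB1 lie mostly in cluster 4 and those of Control mostly in cluster 10, so treatment and cluster cannot be told apart.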

How the results depend on the processing

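The replicate term is part of the main model. Without it the called members went from 12 to 6 for PI3Ki against Control (14 at an unadjusted p under 0.05), from 10 to 4 for PI3Ki against TGFBRi, and from 2 to 0 for TGFBRi against Control (8 at an unadjusted p under 0.05 in edgeR). Calls over all genes fell as well, from 2328 to 649, from 3131 to 1281 and from 467 to 40. With library totals in place of TMM, PI3Ki against Control gave 7, 4 higher and 3 lower, while calls over all genes rose to 3523. With DESeq2, PI3Ki against TGFBRi gave 6 and r2 against r1 gave 1. In drug-susceptible cells TGFB1 against Control gave 6 in place of 11, and in drug-susceptible G1 cells 3. Calls over all genes fell there from 5324 to 2665 and 2350. In G1 cells PI3Ki against TGFB1 gave 15 in place of 9, and TGFBRi against Control gave 0, as it did in drug-susceptible G1 cells (6 at an unadjusted p under 0.05 in each, edgeR). WM983B gave 3 members past 1.5-fold in G1 cells, all lower in primed cells, in place of 0. PI3Ki effects that differed between states numbered 2 with library totals in place of 0.

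With 1 library left out, called members ranged from 3 to 14 for PI3Ki against Control, 5 to 13 for TGFB1 against Control, 0 to 3 for TGFBRi against Control, 3 to 12 for PI3Ki against TGFBRi, 6 to 12 for PI3Ki against TGFB1 and 0 to 6 for r2 against r1. For differences between states the ranges were 4 to 14 for TGFB1, 0 to 1 for TGFBRi and 0 to 0 for PI3Ki. A group left with 1 library is assumed to vary like the others.

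Directions reversed only where TGFB1 was fitted on drug-susceptible cells: INSIG1 (-0.038), ME1 (-0.23) and MVK (-0.014) against Control, MVK (-0.071) in drug-susceptible G1 cells, and MVK (0.039) for PI3Ki against TGFB1. Members called in neither setting were not counted as reversed. The causes were not tested. With the 50000 strongest peaks, 21 in place of 24 members had a promoter peak in all libraries. For the MSMO1 promoter peak, pairing EGFR/NGFR-high and Mix libraries by replicate number, an alternative chosen after seeing the data, gave a ratio of 1.21 (higher in 3 of 3 pairs, exact sign-flip test, two-sided, p = 0.25, the smallest that 3 pairs allow). Same-numbered libraries did not deviate together (r from -0.027 to 0.014 over promoters), so these libraries share only a number.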
